A study of Homo sapiens with 16 samples.

Results

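The genes described here are the stathmin family (STMN1, STMN2, STMN3 and STMN4) and the enzymes that remove or restore the last tyrosine of α-tubulin (VASH1, VASH2, their partner SVBP, and TTL). They are 8 of the 58735 gene IDs in the count tables, found by their GENCODE 29 names. They were chosen with their difference between cells given an siRNA against YES1 (siYES1) and control cells in view, so for that comparison their values are a description and carry no p-value. The study measured polyadenylated RNA in 2 established human lines of triple-negative breast cancer, MDA-MB-231 and SUM159PT, both labelled wild type. YES1 is a Src-family tyrosine kinase. Cells were collected 48 h after transfection with Lipofectamine2000 and either siYES1 or siNS (a control siRNA aimed at firefly luciferase), so all groups share the transfection. Each of the 4 groups, siNS and siYES1 in each line, had 4 libraries, 16 in all. According to the series' design description the replicates were technical. The p-values below therefore measure only the spread between such samples, and each model is 1 established line.

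Microtubules are polymers of α- and β-tubulin that grow and shrink at their ends. Stathmins are small phosphoproteins that bind tubulin dimers and promote shrinkage. STMN1 is expressed widely and is abundant in dividing cells, whereas STMN2, STMN3 and STMN4 are best known from neurons. Vasohibins, in complex with SVBP, cut the tyrosine from the end of α-tubulin, and TTL, tubulin tyrosine ligase, puts it back onto free tubulin.

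The substrate of this cycle is the end of the coding sequence of the α-tubulin genes. The last 30 coding bases in GENCODE 29 (GRCh38) are shown for TUBA1C and TUBA4A, with the last codon before the stop in capitals. That codon says whether the encoded protein ends in the tyrosine.
TUBA1C: gctgacggagaggatgagggtgaagagTAT
TUBA4A: tcctatgaggacgaggatgagggagaaGAA
These bases lie in coding exons at chr12:49273195-49273224 on the plus strand for TUBA1C and chr2:219250355-219250384 on the minus strand for TUBA4A. For each gene the transcript with the longest coding sequence was read, and for TUBA1C the annotation holds 2 different ends among its transcripts, of which 1 is shown. The last codon shown is for tyrosine in TUBA1C and for glutamate in TUBA4A.

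Library depth was 15863961 to 21158617 counts for MDA-MB-231 and 15680459 to 23451253 counts for SUM159PT, and mitochondrial transcripts took 1.26% to 2.50% of them. Expression is given as CPM, the count of a gene scaled to a fixed library total, after TMM scaling over all 16 libraries. YES1 had a mean of 60.5 CPM with siNS and 12.7 CPM with siYES1 in MDA-MB-231, which left 20.9%, and 140.2 and 18.6 CPM in SUM159PT, which left 13.2%. YES1 fell in MDA-MB-231 (log2 fold change -2.20 ± 0.09 SE, adjusted p = 5.25e-11, edgeR quasi-likelihood F test) and in SUM159PT (-2.96 ± 0.14, adjusted p = 3.88e-08), and the groups did not overlap in either line. Control library 1 of SUM159PT stood apart: on the second principal component of that line, with 14% of the variance, it lay at 47.6 and the other control libraries between -32.9 and -11.1. Log2 fold changes of STMN1, STMN3, STMN4, VASH2 and TTL are given with and without it. Stathmin shares, vasohibin ratios and most values of other genes are given only with it. Of the receptors that define the tumour class, PGR was at 0 in 3 of the 4 groups, while the summed level of ESR1, PGR and ERBB2 was 94.3 to 121 CPM in MDA-MB-231 and 49.5 to 83.9 CPM in SUM159PT. The summed level of 10 proliferation genes was 1192 to 1515 CPM with siNS and 2519 to 2539 CPM with siYES1 in MDA-MB-231, and 1049 to 1534 and 2326 to 2406 CPM in SUM159PT. Of 10 neuronal markers, ELAVL4 and NEUROD1 were at 0 in every library, and the sum was 67.9 to 72.2 CPM with siNS and 41.7 to 45.6 CPM with siYES1 in MDA-MB-231, and 121 to 164 and 151 to 177 CPM in SUM159PT. Fibroblast markers summed to 60.6 to 71.1 CPM with siNS and 24.3 to 29.2 CPM with siYES1 in MDA-MB-231, and to 1795 to 2056 and 687 to 801 CPM in SUM159PT. Endothelial and immune markers were also lower with siYES1: endothelial sums were 7.17 to 11.995 and 4.25 to 6.53 CPM, and 16.6 to 25.2 and 1.86 to 2.49 CPM, and immune sums 7.59 to 9.59 and 1.40 to 2.39 CPM, and 3.55 to 5.57 and 0.404 to 1.36 CPM, in the same order. Epithelial markers summed to 1867 to 2402 and 1906 to 1980.04 CPM in MDA-MB-231 and to 432 to 513 and 249.5 to 267 CPM in SUM159PT. Mesenchymal markers were higher with siYES1, at 773 to 941 and 1233 to 1277 CPM in MDA-MB-231 and 3538 to 5007 and 6920.1 to 7420.2 CPM in SUM159PT. The part of these marker groups in the values below was not tested. In these bulk samples fewer cells expressing a gene and less RNA per cell cannot be told apart.

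STMN1 (ENSG00000117632), on chromosome 1 from 25884181 to 25906991 on the minus strand, was per length of exon the most abundant stathmin transcript or close to it in each group. In MDA-MB-231 its 4 siNS libraries held 306, 363, 258 and 220.3 CPM (mean 287 ± 61.5 SD, n = 4) and its siYES1 libraries 321, 342, 372 and 399.9 CPM (359 ± 34.3). The siYES1 mean was higher, but control library 2 was above the siYES1 libraries 1 and 2, so the groups overlapped. In SUM159PT the siNS libraries held 249, 156, 160.1 and 148 CPM (178 ± 47.4) and the siYES1 libraries 196, 188, 193 and 205 CPM (196 ± 6.95). Control library 1 alone lay above all siYES1 libraries there, and the other 3 controls lay below them. The log2 fold change of STMN1 was 0.38 ± 0.12 (SE) for MDA-MB-231 cells and 0.09 ± 0.14 for SUM159PT cells. Without control library 1 the SUM159PT controls averaged 155 ± 6.19 CPM (n = 3), the groups no longer overlapped and the log2 fold change was 0.29 ± 0.06. With total counts as the scaling, the SUM159PT value with all libraries turned to -0.09. STMN1 has 2 processed pseudogenes in the annotation, STMN1P1 and STMN1P2, which had 14 and 0 counts over all libraries.

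STMN3 (ENSG00000197457, chromosome 20, 63639705 to 63657682, minus strand) is a palmitoylated stathmin best known from neurons. In MDA-MB-231 controls it stood level with STMN1 per length of merged exons, although its mean CPM was lower. There it had 122, 130.1, 147 and 156 CPM with siNS (139 ± 15.6) and 69.3, 69.6, 70.2 and 65.7 CPM with siYES1 (68.7 ± 2.05). All siYES1 libraries lay below all controls, at 49.4% of the control mean. In SUM159PT the controls held 37.1, 44.6, 37.7 and 34.5 CPM (38.5 ± 4.34) and the siYES1 libraries 34.5, 32.5, 34.5 and 36.2 CPM (34.4 ± 1.52), with overlap. The log2 fold change was -0.96 ± 0.08 for MDA-MB-231 cells and -0.20 ± 0.10 for SUM159PT cells, where it was -0.23 without control library 1 and -0.37, past the threshold of the test, with total counts as the scaling. Fitted over both lines, the response of STMN3 differed by 0.85 ± 0.13 on the log2 scale (SUM159PT minus MDA-MB-231).

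STMN4 (ENSG00000015592, chromosome 8) was present in SUM159PT controls and nearly absent elsewhere. The SUM159PT controls held 25.9, 48.7, 44.9 and 38.2 CPM (39.4 ± 10.0, from 433 to 935 counts), and the siYES1 libraries 0.750, 0.884, 0.510 and 0.538 CPM (0.671 ± 0.18, from 9 to 15 counts). The siYES1 mean was 1.70% of the control mean, the groups were far apart, and the log2 fold change of -5.92 ± 0.25 was the eighth lowest of 14469 genes tested in that line. Control library 1 was the lowest of the controls, and without it the value was -6.08. In MDA-MB-231 STMN4 had 1 count in a single siYES1 library and 0 in the other libraries of the line. STMN2 (ENSG00000104435, chromosome 8), which supports axon growth, had 0 counts in all 16 libraries, which allows up to 3 counts, or 0.132 to 0.187 CPM, per library, for counting error only.

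**Figure D1:**
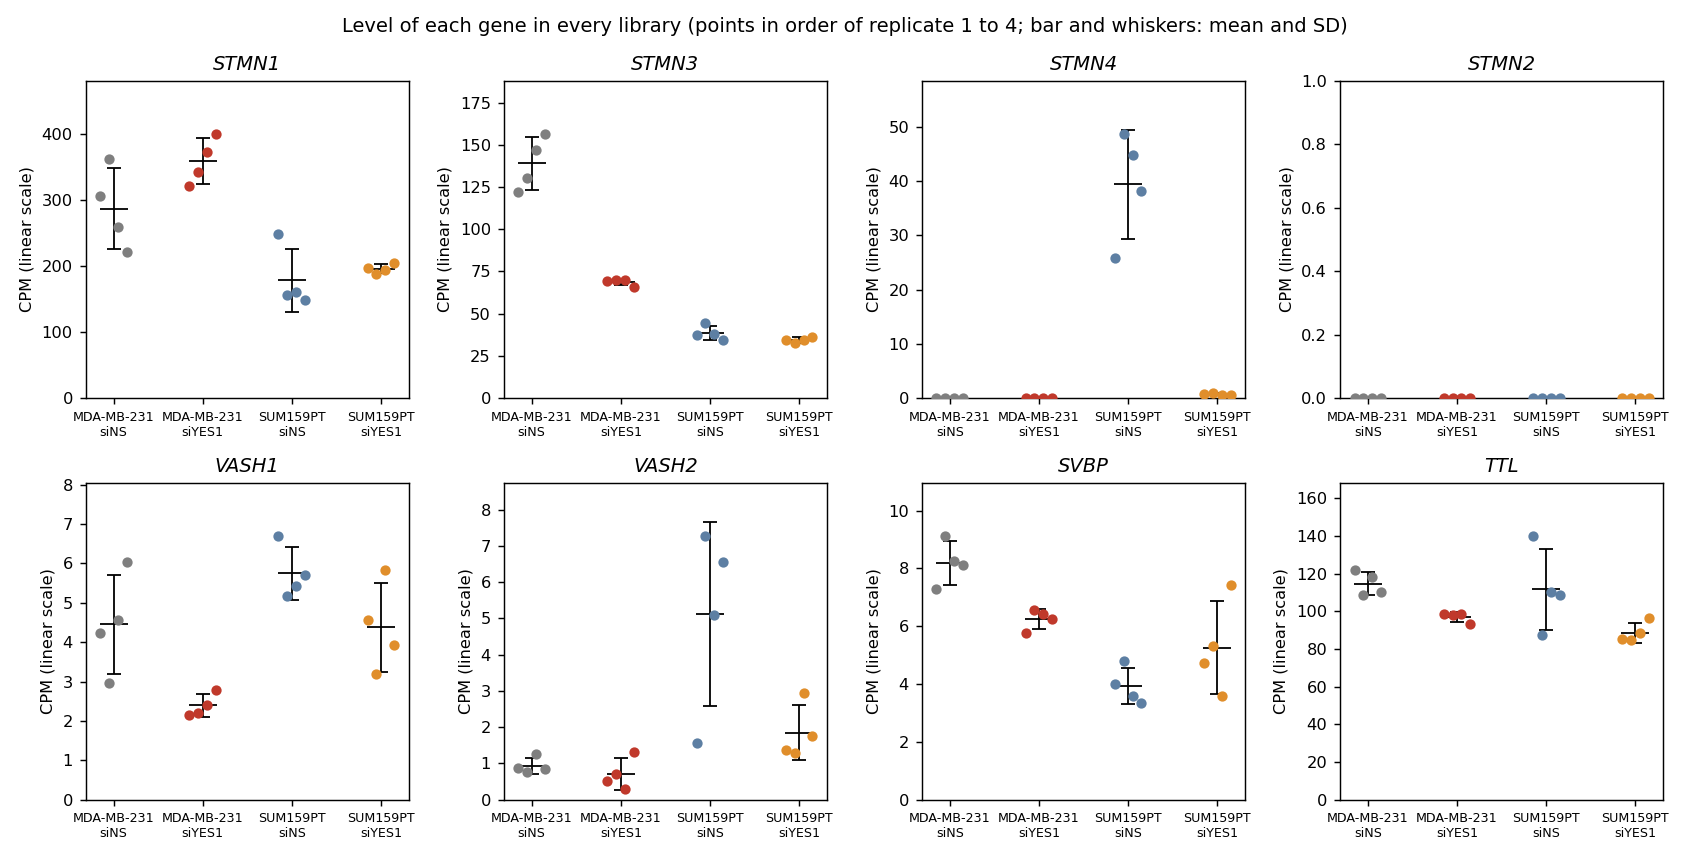
CPM of the 8 genes in each library (points, replicates 1 to 4 from left to right, linear axes that differ between genes), with the mean and SD of each group of 4 as a bar and whiskers. STMN4 had means of 39.4 CPM with siNS and 0.671 CPM with siYES1 in SUM159PT, STMN3 had 139 and 68.7 CPM in MDA-MB-231, and control library 1 of SUM159PT stood high for STMN1 and low for VASH2.

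Because CPM does not allow levels of different genes to be compared, CPM was divided by the length of each gene's merged exons. Merged exons span all annotated transcripts (6261 bases for STMN1 and 3032 for STMN3) and can exceed the transcript expressed. Levels, shares and ranks on this scale therefore depend on the annotation. On this scale the stathmins summed to 91.6 ± 6.26 CPM per kb in MDA-MB-231 controls (n = 4) and to 79.98 ± 5.05 with siYES1, and to 53.1 ± 5.55 and 42.8 ± 1.56 CPM per kb in SUM159PT. The mix within that sum differed more than the sum. STMN1 made up 49.7% ± 7.82 of it in MDA-MB-231 controls and 71.6% ± 2.37 with siYES1, and STMN3 made up nearly all of the rest. In SUM159PT controls STMN1 made up 53.1% ± 9.11, STMN3 24.0% ± 2.71 and STMN4 22.9% ± 6.57. With siYES1 these shares were 73.0% ± 0.16, 26.5% ± 0.30 and 0.479% ± 0.14. Among the SUM159PT controls, library 1 had the highest STMN1 share (66.4%) and the lowest STMN4 share (13.1%). STMN1 was thus the main stathmin transcript in the siYES1 libraries of both lines, at a close share, with a different stathmin lower in each line.

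**Figure D2:**
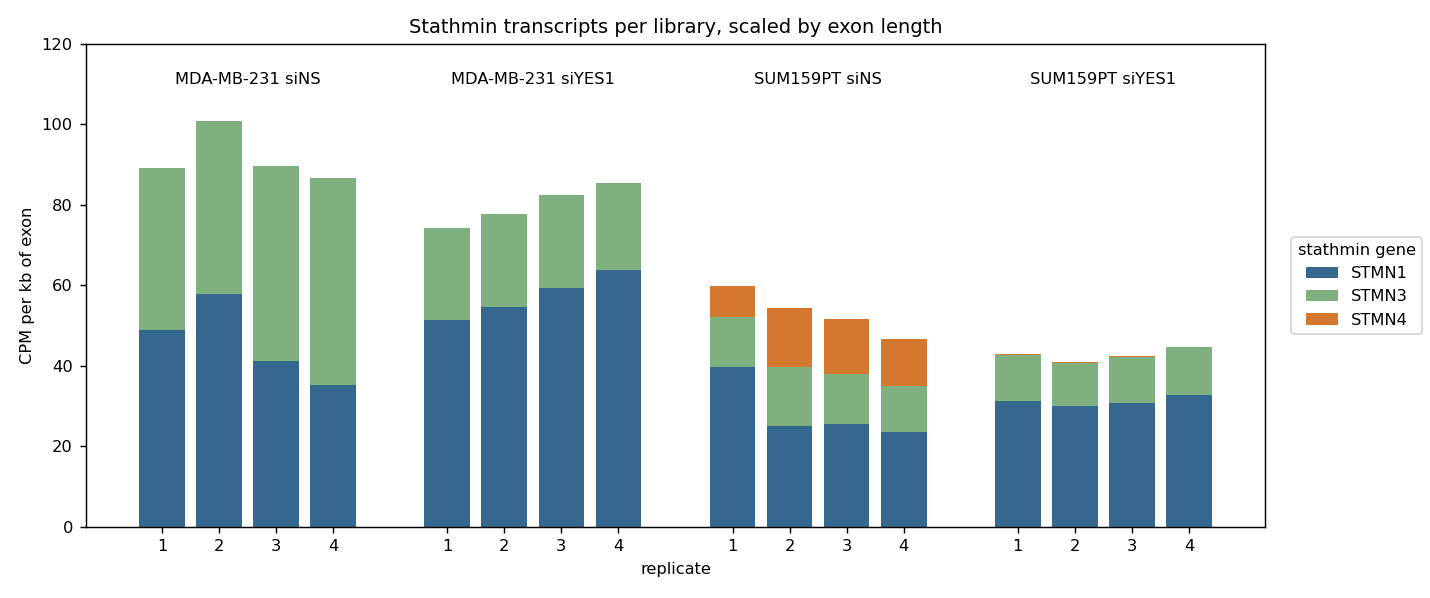
Level of each stathmin in CPM per kb of exon, stacked, for each library (replicates 1 to 4 of each group). The mean stack was 91.6 CPM per kb with siNS and 79.98 with siYES1 in MDA-MB-231, where the STMN3 segment is smaller with siYES1, and 53.1 and 42.8 in SUM159PT, where the STMN4 segment is all but missing with siYES1.

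The vasohibins were transcripts of low abundance. VASH1 (ENSG00000071246, chromosome 14, 76762189 to 76783015, plus strand), the catalytic subunit first described as an inhibitor of blood vessel growth, had 4.23, 2.96, 4.57 and 6.04 CPM in MDA-MB-231 controls (4.45 ± 1.26) and 2.16, 2.21, 2.41 and 2.79 CPM with siYES1 (2.39 ± 0.29). All siYES1 libraries lay below all controls. In SUM159PT it had 6.71, 5.17, 5.42 and 5.71 CPM with siNS (5.75 ± 0.67) and 4.56, 3.18, 5.84 and 3.92 CPM with siYES1 (4.37 ± 1.13), where siYES1 library 3 reached the controls. The log2 fold change of VASH1 was -0.84 ± 0.21 for MDA-MB-231 cells and -0.44 ± 0.23 for SUM159PT cells. VASH1 shares exon bases with VASH1-AS1 on the opposite strand, which had means of 0.139 to 0.238 CPM. Whether counting used strand is not given here, and reads of such pairs cannot be told apart.

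VASH2 (ENSG00000143494, chromosome 1, 212950520 to 212992037, plus strand), the second catalytic subunit, was close to the limit of detection in MDA-MB-231. It had 0.882, 0.753, 1.25 and 0.841 CPM with siNS (0.932 ± 0.22) and 0.526, 0.701, 0.287 and 1.31 CPM with siYES1 (0.705 ± 0.44), from 5 to 23 counts per library, and no difference was detectable at this depth (-0.34 ± 0.38). In SUM159PT the controls held 1.56, 7.28, 5.09 and 6.54 CPM (5.12 ± 2.54) and the siYES1 libraries 1.38, 1.30, 2.95 and 1.76 CPM (1.85 ± 0.76). Control library 1 lay among the siYES1 libraries, and the other 3 controls lay above them. The log2 fold change was -1.51 ± 0.43 with all libraries, and -1.81 ± 0.30 without control library 1, when the controls averaged 6.30 ± 1.12 CPM (n = 3) and the groups did not overlap.

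SVBP (ENSG00000177868, chromosome 1, 42807052 to 42817252, minus strand), the small protein that both vasohibins need for stability and activity, had a lower mean with siYES1 in MDA-MB-231 and a higher one in SUM159PT. MDA-MB-231 controls held 7.28, 9.13, 8.27 and 8.11 CPM (8.20 ± 0.76) and siYES1 libraries 5.78, 6.58, 6.43 and 6.24 CPM (6.26 ± 0.35), with all siYES1 libraries lower. SUM159PT controls held 4.01, 4.79, 3.60 and 3.36 CPM (3.94 ± 0.63) and siYES1 libraries 4.73, 5.30, 3.57 and 7.44 CPM (5.26 ± 1.62). In the latter line the groups overlapped, and siYES1 library 4 was the highest. The log2 fold change was -0.33 ± 0.12 for MDA-MB-231 cells and 0.38 ± 0.25 for SUM159PT cells. The fitted difference between the lines was 0.81 ± 0.27. Over 23 alternative settings that difference ran from 0.59 to 0.96, and it missed the threshold in 12 of them. SVBP shares 63 exon bases with ERMAP on the opposite strand, which had means of 3.23 to 6.20 CPM.

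TTL (ENSG00000114999, chromosome 2, 112482154 to 112541739, plus strand), the ligase that restores the tyrosine, had 122, 109, 118 and 110.4 CPM in MDA-MB-231 controls (115 ± 6.22) and 98.6, 98.1, 98.6 and 93.3 CPM with siYES1 (97.2 ± 2.59). All siYES1 libraries were lower, by a small amount. In SUM159PT it had 140.3, 87.7, 110.2 and 109 CPM with siNS (112 ± 21.7) and 85.6, 84.6, 88.6 and 96.3 CPM with siYES1 (88.8 ± 5.29), with control library 2 inside the siYES1 range. The log2 fold change was -0.18 ± 0.07 for MDA-MB-231 cells and -0.37 ± 0.12 for SUM159PT cells. Without control library 1 the latter was -0.25 ± 0.08.

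Across these genes, 5 of the 6 tested in MDA-MB-231 passed an adjusted p of 0.05 in edgeR, with STMN1 higher and STMN3, VASH1, SVBP and TTL lower. In that line 52.4% of all genes tested passed, 24.9% higher and 27.5% lower, and nothing is read from the count since the genes were chosen on this contrast. In SUM159PT 3 of 7 passed, STMN4, VASH2 and TTL, all lower, beside 36.8% of all genes tested, 17.7% higher and 19.0% lower. Without control library 1 the number was 4 of 7, with STMN1 added as higher, beside 6237 of all 14693 genes tested. The CPM of the groups did not overlap for 4 genes in MDA-MB-231, all lower, beside 28.0% of all genes lower without overlap, and for STMN4 alone in SUM159PT, beside 16.8%. The median log2 fold change was -0.34 over the 6 genes and 0.00 over all genes in MDA-MB-231, and -0.37 over the 7 genes and -0.03 over all genes in SUM159PT. Of the 16 alternative settings, the calls of SVBP and TTL in MDA-MB-231 were lost in 8 each, that of STMN1 in MDA-MB-231 in 1 and that of TTL in SUM159PT in 5. The fitted difference in response (SUM159PT minus MDA-MB-231) was -7.51 ± 2.77 for STMN4 and -1.07 ± 0.64 for VASH2. It was 0.50 ± 0.32 for VASH1, -0.19 ± 0.20 for STMN1 and -0.09 ± 0.14 for TTL. These differences did not pass, though that of STMN4 did in 6 of 23 alternatives and that of VASH2 in 1.

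**Figure D3:**
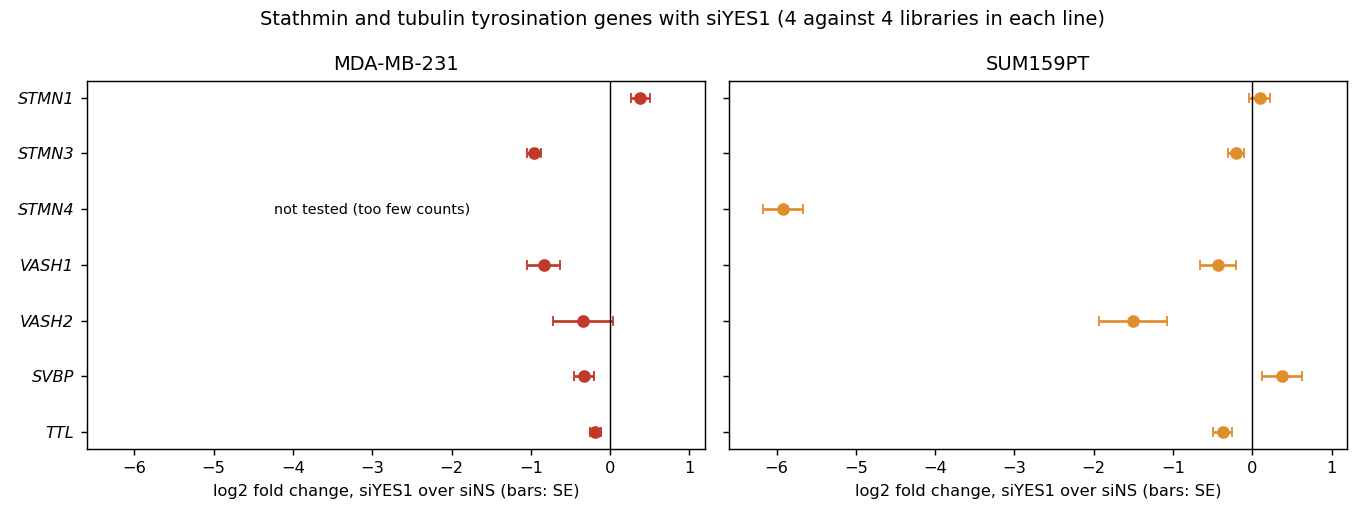
Log2 fold change of siYES1 over siNS with its standard error (bars) for each gene that passed the filter on low counts, in each line with all its libraries. STMN4 was not tested in MDA-MB-231 and STMN2 in neither line. The largest values are -5.92 for STMN4 and -1.51 for VASH2 in SUM159PT and -0.96 for STMN3 in MDA-MB-231.

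Apart from STMN4, the order of the transcripts per length was similar between groups. In MDA-MB-231 controls STMN3 and STMN1 had 45.8 ± 5.15 and 45.8 ± 9.82 CPM per kb, TTL 7.30 ± 0.40, SVBP 6.79 ± 0.63, VASH1 0.684 ± 0.19 and VASH2 0.103 ± 0.02. STMN3 and STMN1 overlapped there, as did TTL and SVBP. In SUM159PT controls the order was STMN1 at 28.5 ± 7.57, STMN3 at 12.7 ± 1.43, STMN4 at 11.97 ± 3.04, TTL at 7.10 ± 1.38, SVBP at 3.26 ± 0.52, VASH1 at 0.884 ± 0.10 and VASH2 at 0.563 ± 0.28 CPM per kb, and neighbours overlapped from STMN3 to TTL and between VASH1 and VASH2. In the siYES1 groups STMN1 was first without overlap, at 57.3 ± 5.49 and 31.2 ± 1.11 CPM per kb. The transcripts of the partner SVBP exceeded those of its catalytic subunits everywhere. The ratio of SVBP to the summed vasohibins per kb was 9.21 ± 3.31 with siNS and 11.9 ± 1.97 with siYES1 in MDA-MB-231, and 2.28 ± 0.44 and 5.42 ± 2.41 in SUM159PT, with overlap between siNS and siYES1 in both lines. The vasohibins summed to 0.787 ± 0.20 and 0.446 ± 0.09 CPM per kb in MDA-MB-231 and to 1.45 ± 0.19 and 0.876 ± 0.25 in SUM159PT.

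The control groups of the lines were also compared with each other. This is not the contrast the genes were chosen on, but it shares its siNS libraries, so it is not independent of the choice and the values are a description. STMN4 was at 39.4 CPM in SUM159PT controls against 0 counts in MDA-MB-231 controls, at least 242-fold higher when set against the highest limit of the 4 MDA-MB-231 controls at 3 counts per library (0.163 CPM), and at least 159-fold higher in the lowest SUM159PT library. It passed the filter on low counts through SUM159PT alone. VASH2 was 2.45 ± 0.43 (SE) higher in SUM159PT on the log2 scale and its groups did not overlap. Without control library 1 of SUM159PT that difference was 2.78. STMN3 was lower in SUM159PT (-1.85 ± 0.09 on the log2 scale), and so was SVBP (-1.06 ± 0.19), both without overlap. STMN1 was lower as well (-0.69 ± 0.14), although control library 1 overlapped with the MDA-MB-231 controls, and without it the difference was -0.87. VASH1 and TTL lay closer together in the lines, with differences of 0.37 ± 0.22 and -0.04 ± 0.10, and their groups overlapped. Of the 7 genes tested 5 passed an adjusted p of 0.05, beside 77.0% of all genes, 38.0% higher and 39.0% lower in SUM159PT, and for 4 of the 7 the groups did not overlap, beside 66.7% of all genes. Nothing is read from these counts, and STMN4 could pass only by being high in 1 line. The lines were counted in separate tables, so line and table cannot be told apart.

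The α-tubulin genes, whose products are the substrate, did not move together. TUBA1A had 297, 332, 238 and 261 CPM in MDA-MB-231 controls and 37.1, 37.4, 38.5 and 38.1 CPM with siYES1. It fell by 2.84 on the log2 scale (-2.84 ± 0.10, adjusted p = 8.02e-12, edgeR), without overlap. In SUM159PT it had 181, 126, 116 and 116 CPM with siNS and 114, 106, 109 and 111 CPM with siYES1 (-0.34 ± 0.13, adjusted p = 0.0539). Between lines the response of TUBA1A differed by 2.61 ± 0.17 (adjusted p = 7.34e-10, interaction in edgeR). TUBA1B rose in MDA-MB-231 from 439 ± 11.96 to 678 ± 25.97 CPM (0.68 ± 0.07, adjusted p = 2.16e-07, edgeR) and in SUM159PT from 488 ± 87.9 to 679 ± 12.7 CPM (0.43 ± 0.10, adjusted p = 0.00504). TUBA1C, whose longest coding sequence ends in the tyrosine codon, rose by 0.27 ± 0.07 in MDA-MB-231 (adjusted p = 0.0036, edgeR) and by 0.89 ± 0.09 in SUM159PT (adjusted p = 6.55e-06). TUBA4A, which ends in the glutamate codon, fell in MDA-MB-231 from 114 to 85.9 CPM in mean (-0.36 ± 0.11, adjusted p = 0.0106, edgeR), and in SUM159PT it had 165 and 144 CPM (-0.24 ± 0.10, adjusted p = 0.0808). Of the 9 α-tubulin genes 4 were tested in MDA-MB-231, 2 rising and 2 falling, and 5 in SUM159PT, where 2 rose and the others did not pass, or 1 rose and 2 fell with total counts as the scaling. Without control library 1, which was the highest for TUBA1A, TUBA1B, TUBA1C and TUBA4A, 3 rose and 1 fell there. TUBAL3, a divergent member, was tested in SUM159PT alone, at 0.401 and 1.02 CPM (1.31 ± 0.60, adjusted p = 0.105, edgeR), and TUBA3C, TUBA3D, TUBA3E and TUBA8 had too few counts to test in either siYES1 comparison. Several of the α-tubulin genes are nearly identical in sequence, so reads may have been divided wrongly between them, and the α-tubulin values are uncertain.

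Among other enzymes that modify tubulin, some rose and some fell. MATCAP1 (KIAA0895L in the annotation) is a detyrosinase unrelated to the vasohibins, and KIAA0895 is its paralog. KIAA0895L fell in SUM159PT, from 29.8, 33.6, 30.1 and 34.1 CPM with siNS to 16.2, 23.4, 18.9 and 14.6 CPM with siYES1 (-0.85 ± 0.14, adjusted p = 0.000534, edgeR), and in MDA-MB-231 it did not pass the test (-0.25 ± 0.15, adjusted p = 0.168). KIAA0895 fell in both lines, by 0.94 and 0.95 on the log2 scale (-0.94 ± 0.14, adjusted p = 4.31e-05, and -0.95 ± 0.16, adjusted p = 0.000585, edgeR). The TTLL genes, listed as polyglutamylases and polyglycylases, relate to TTL, and most of them encode enzymes that add glutamate or glycine chains. Of the 8 tested in MDA-MB-231, 2 rose and 5 fell (median log2 fold change -0.41), and of the 7 tested in SUM159PT, 2 rose and 1 fell (median 0.09, or -0.08 with total counts). TTLL4 rose in both lines (1.07 and 0.70) and so did TTLL5 (0.40 and 0.53), while TTLL11 fell in both (-0.36 and -0.82). TTLL7 fell in MDA-MB-231 (-0.47, adjusted p = 0.0108, edgeR) and was at 0.09 in SUM159PT, a difference of 0.66 between the responses (adjusted p = 0.0124), which missed the threshold with total counts (adjusted p = 0.0915). The deglutamylases that shorten such chains had 2 of 4 rising in MDA-MB-231, AGBL5 (0.62) and AGTPBP1 (0.23), and 1 of 3 in SUM159PT, AGBL5 (0.30). Neither AGTPBP1 in MDA-MB-231 nor AGBL5 in SUM159PT passed with total counts. Among 3 genes of tubulin acetylation, the deacetylase SIRT2 fell (-1.01) and the deacetylase HDAC6 rose (0.40) in MDA-MB-231. In SUM159PT SIRT2 was at -0.31 (adjusted p = 0.0565, edgeR) and HDAC6 at 0.31 (adjusted p = 0.0516). SIRT2 was called lower there without control library 1 and with total counts as the scaling.

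Among proteins that read the tyrosine, those that favour tyrosinated tubulin (7 genes, of which TBCE has 2 gene IDs) had 4 of 8 gene IDs rising and 1 falling in MDA-MB-231, and 4 rising in SUM159PT, where the others did not pass. Scaling by total counts gave 3 rising and 3 falling in MDA-MB-231 and 2 rising in SUM159PT. KIF2C, a kinesin that depolymerises microtubules and binds tyrosinated ones, rose in MDA-MB-231 from 77.0 to 151 CPM (1.03 ± 0.09) and in SUM159PT from 67.5 to 153 CPM (1.14 ± 0.07, both past the threshold in edgeR). CLIP2, a plus-end binding protein of the family with the CAP-Gly domain, fell in MDA-MB-231 from 111 to 59.3 CPM (-0.85 ± 0.08, adjusted p = 1.95e-07, edgeR), and in SUM159PT it had 210.3 and 242 CPM (0.16 ± 0.15, adjusted p = 0.433). CLIP1, of the same family, and the depolymerising kinesin KIF2A rose in SUM159PT (0.38 and 0.42) and did not pass in MDA-MB-231 (-0.20, adjusted p = 0.0765, and -0.03, adjusted p = 0.792, edgeR). TBCE, a chaperone that folds α-tubulin, rose in MDA-MB-231 under both of its gene IDs (0.49 and 0.82). CENPE, the mitotic motor that prefers detyrosinated microtubules, rose in both lines (0.96 and 0.63), and KIF5B, a conventional kinesin of that preference, rose in SUM159PT (0.31 ± 0.07, adjusted p = 0.00553, edgeR), though neither passed there with total counts. Of the end-binding proteins, MAPRE1 rose in both lines (0.53 and 0.54) and MAPRE3, the member most abundant in neurons and muscle, fell in MDA-MB-231 from 20.6 to 7.04 CPM (-1.49 ± 0.11, adjusted p = 1.06e-08, edgeR). MAPRE2 fell there too (-0.38), and in SUM159PT neither MAPRE3 (-0.05) nor MAPRE2 (-0.16, adjusted p = 0.0994, edgeR) passed, but MAPRE2 was called lower without control library 1 and with total counts.

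The kinases that phosphorylate stathmins, with their binding partners, had 8 of 14 rising and 1 falling in MDA-MB-231 (median log2 fold change 0.40), and 8 rising and 2 falling in SUM159PT (0.50). The mitotic kinases PLK1 (1.60 and 1.53) and AURKB (1.08 and 0.96) rose in both lines, as did the cell cycle kinases CDK2 (1.60 and 1.15) and CDK1 (0.59 and 0.76). MAPK3, an ERK kinase that phosphorylates STMN1, fell in both (-0.80 and -0.54). Among 9 other proteins that sever or depolymerise microtubules, 5 rose and 2 fell in MDA-MB-231 (median 0.43), and 4 rose in SUM159PT, where the other 5 did not pass (0.26). Total counts left 2 rising in SUM159PT, with a median of 0.09. KIF18A (0.78 and 1.02) and KIF18B (1.15 and 0.78) rose in both lines, and the katanin subunit KATNA1 did so too (0.43 and 0.41), though in SUM159PT it did not pass with total counts. The kinesin KIF24 and FIGNL1, a relative of the severing enzyme fidgetin, rose in MDA-MB-231 (1.06 and 1.04) and did not pass in SUM159PT (0.02, adjusted p = 0.966, and 0.31, adjusted p = 0.467, edgeR). All 10 proliferation genes rose in MDA-MB-231 (median 0.93) and 7 rose and 1 fell in SUM159PT (0.79), with CCNA2 at 1.16 and 1.34, CCNB1 at 1.12 and 1.18, BIRC5 at 1.27 and 0.99 and TOP2A at 0.90 and 1.04. The fall in SUM159PT was of PCNA, the replication clamp (-0.97 ± 0.27, adjusted p = 0.0117, edgeR). Total counts left 5 of these genes rising in SUM159PT, with a median of 0.61.

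Over all 11 lists, 51 of 67 genes tested passed in MDA-MB-231, 36 rising and 15 falling, beside 52.4% of all genes, and their median log2 fold change was 0.29. In SUM159PT 37 of 66 passed, 31 rising and 6 falling, beside 36.8% of all genes, with a median of 0.28. Leaving out control library 1 gave 43 of 66, 34 rising and 9 falling, beside 6237 of all 14693 genes tested. Total counts as the scaling shifted SUM159PT values by -0.17 on the log2 scale. Then 20 rose and 11 fell, beside 1394 rising and 4173 falling of all 14469 genes tested. The lists hold genes of mitosis, and the proliferation genes are 1 of the 11 lists. That list holds 10 of the 36 rising genes in MDA-MB-231 and 7 of the 31 in SUM159PT. The part of proliferation in these totals was not tested. The response differed between the lines for 16 of 69 genes tested, beside 24.3% of all genes.

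**Figure D4:**
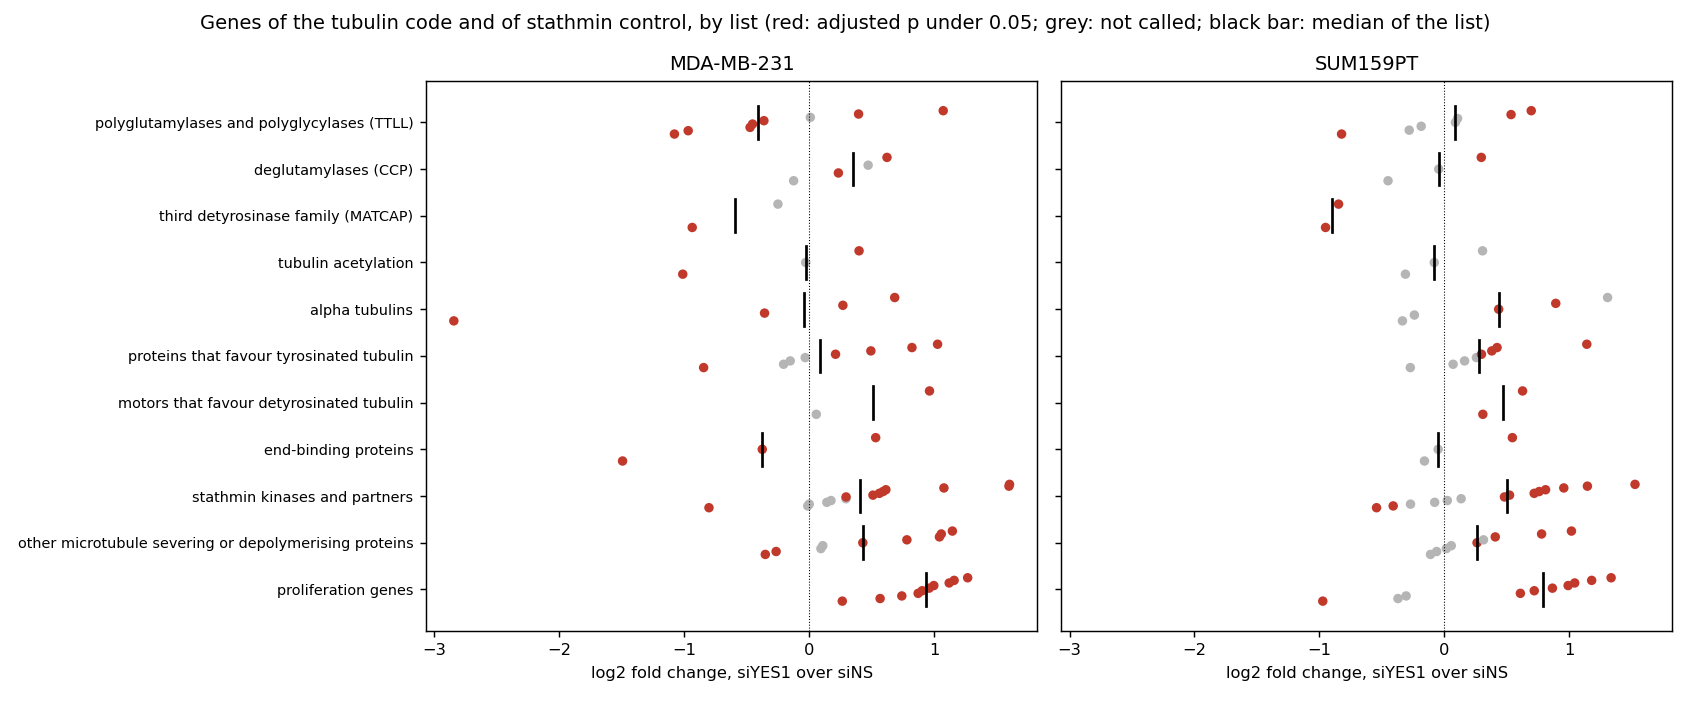
Log2 fold change of siYES1 over siNS for each gene of the 11 lists (points, red where the adjusted p was under 0.05 and grey otherwise), with the median of each list as a bar, in MDA-MB-231 and SUM159PT. The proliferation genes have medians of 0.93 and 0.79, and the TTLL and α-tubulin genes spread to both sides of 0 in MDA-MB-231.

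Over the 16 libraries, the coding genes whose log2 CPM followed each transcript most closely were found among 10691 genes. The libraries share 4 groups, so these correlations mostly describe group means and carry no test. They were SNRPD1 (Pearson r = 0.990), PWP1 (0.972) and CCT3 (0.972) for STMN1, and SIN3B (0.989), SLC35B2 (0.983) and SERPINB1 (0.981) for STMN3. For VASH1 they were SEPT8 (0.930), AXIN2 (0.914) and PTPN9 (0.904), and for VASH2 TNS2 (0.938), LAPTM5 (0.921) and PDE4A (0.913). For SVBP they were ECI2 (0.900), NEXN (0.900) and CDA (0.890), and for TTL POGLUT1 (0.932), ZNF629 (0.913) and DFFA (0.906). SIN3B, a corepressor subunit, had means of 267 and 149.1 CPM with siNS and siYES1 in MDA-MB-231 and 86.7 and 77.1 CPM in SUM159PT, a pattern close to that of STMN3. STMN2 and STMN4 were not searched, since they did not pass the filter in both lines.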

How the data were processed

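HISAT2 2.0.5 (alignment) and featureCounts 1.5.0-p3 (counting), on build hg38, are named in the submitters' processing notes. The authors deposited raw whole-number counts, 1 table per line. Annotation release and strand setting: not given in the sources used here. Columns of the SUM159PT table begin with S149, while titles and labels give SUM159PT, and which line it is was not tested. All 58735 gene IDs were found in GENCODE 29, and 26050 had 0 counts in every library. Depth was 15680459 to 23451253 counts per library. Chi-squared per degree of freedom between libraries of a group was 2.21 to 49.6, so no library was a duplicate. 

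Each line was fitted on its 8 libraries with the quasi-likelihood F test of edgeR 4.0.16, under R 4.3.3, after filterByExpr and TMM scaling. Genes with a Benjamini-Hochberg adjusted p under 0.05 over all genes tested were called. The lines' controls, and the difference in response between lines (interaction), were compared in 1 model of all 16 libraries. Printed CPM use factors from all 16 libraries. Fitted values minus log2 ratios of printed means are therefore shifted by 0.06 in MDA-MB-231 and -0.04 in SUM159PT. The scripts were tested on simulated data. Alternatives were RLE and total-count scaling, no filter and a minimum mean of 1 CPM, limma-voom (limma 3.58.1), DESeq2 1.42.0, replicate number as a block, other sets of libraries and leaving out each library. Those of the difference in response were added after the data were seen.

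The 8 genes, the 11 lists (79 gene IDs) and the markers were chosen with earlier results of these data known. By the rule, named genes were the 8 genes, YES1, up to 3 called genes per list and line at a mean of 5 CPM or more with the largest log2 fold change, all α-tubulins and the 3 genes nearest to each of the 8. MAPK3, CDK1 and PCNA were named after their values were seen. Markers of other cell types were summed only as levels.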

Additional observations from a re-analysis of the deposited data

Results flagged for a closer look

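In 13 of 178 groups of 4 libraries for the genes named, 1 library lay far from the other 3 by Dixon's test, and chance gives about 1 in 20. Control library 1 of SUM159PT was that library for STMN1 at 249 CPM, BIRC5 at 128 CPM, TUBA1A at 181 CPM, TUBA1B at 618 CPM, TUBA1C at 256 CPM and TUBAL3 at 0.898 CPM. In SUM159PT it was also control library 2 for KATNA1 at 30.3 CPM, control library 4 for KIF2C at 72.0 CPM, siYES1 library 2 for TOP2A at 889 CPM and siYES1 library 3 for TUBA1B at 660.3 CPM. In MDA-MB-231 it was siYES1 library 4 for TTL at 93.3 CPM, and control library 1 for KIF5B at 383 CPM and TTLL5 at 38.1 CPM.

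The response to siYES1 differed between the lines for 10 of the named pathway genes by the interaction test of edgeR, among 16 of 69 pathway genes and beside 24.3% of all genes tested. The log2 differences (SUM159PT minus MDA-MB-231) were 2.61 for TUBA1A (adjusted p = 7.34e-10), 1.54 for MAPRE3 (8.14e-06), 1.10 for CLIP2 (0.00013), 0.80 for SIRT2 (0.000225), 0.72 for TUBA1C (5.5e-05) and 0.68 for CLIP1 (0.000658). They were 0.66 for TTLL7 (0.0124), 0.55 for KIF2A (0.00184), 0.35 for KIF5B (0.0334) and -0.94 for KIF24 (0.00653). KIF24, a centriolar kinesin, had 13.3 ± 0.84 and 26.7 ± 2.21 CPM with siNS and siYES1 in MDA-MB-231 and 6.00 ± 1.67 and 6.24 ± 1.46 CPM in SUM159PT. In the 23 alternatives TTLL7 and KIF2A missed the threshold with total counts (adjusted p = 0.0915 and 0.0517), KIF5B missed it in 15, and the other 7 genes passed in all 23.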

How the results depend on the processing

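Of the stathmin and tyrosination genes, 5 of 6 tested were called in MDA-MB-231, beside 7503 of all 14319 genes. With no filter on low counts 3 of 7 were called, beside 7791 of all 28945 genes. The joint fit of all 16 libraries called 2 of 7, beside 5898 of all 16299 genes. Leaving out each library gave 3 to 5, beside 6725 to 7753 of all genes. The other totals of genes called in either direction, as given in the text, stayed within 1.5 times, apart from the difference in response. Their split by direction moved more: with total counts, 20 pathway genes rose and 11 fell in SUM159PT, against 31 and 6 with TMM. Of all 14469 genes tested there, 1394 rose and 4173 fell with total counts, against 2566 and 2755 with TMM. On leaving out each library, 2 to 4 of the 8 genes were called in SUM159PT and 5 to 6 between the controls. Pathway totals were 46 to 51 in MDA-MB-231 and 32 to 43 in SUM159PT. They were 48 to 55 between the controls and 14 to 22 for the difference in response. Totals over all genes were 6725 to 7753, 4323 to 6237, 12259 to 13055 and 3349 to 4495, in the same order. Of 3506 values of single genes under alternatives, 0 reversed after a call, 95 lost a call and 70 gained one. Same-numbered libraries did not deviate together (correlations from -0.124 to 0.0871). In each line 1 of 4 control libraries matched its own number best. Pairing by number was thus not detected, which does not exclude that same-numbered libraries were prepared together. With the replicate block, 4, 3 and 5 of the 8 genes were called in MDA-MB-231, SUM159PT and between the controls. Pathway genes called were then 50, 36 and 50 in that order and 16 for the difference in response. All genes called were 7109, 4961, 12367 and 3545. With total counts, 24 pathway genes differed in response, 8 higher and 16 lower in SUM159PT, against 16, 12 higher and 4 lower, with TMM. Of all 16299 genes tested, 1375 were higher and 2795 lower with total counts, against 2511 and 1442 with TMM. Depth limits VASH2 in MDA-MB-231, at 5 to 23 counts per library, and STMN4 with siYES1 in SUM159PT, at 9 to 15.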
